A study of Mus musculus with 33 samples.

Results

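The granins and the enzymes that cut prohormones were followed through GDNF-treated enteric neural crest cells (ENCCs), untreated ENCCs and whole gut of mouse embryos of day 14.5. The members were 8 genes chosen by symbol, namely Chga, Chgb, Scg2, Scg3, Scg5, Vgf, Pcsk1 and Pcsk2, and a probe set was taken where the platform annotation gave it exactly 1 of these symbols. This found 7 probe sets, 1 for each of 7 genes, among 34945 named probe sets for 18193 genes. The annotation used here names no probe set for Pcsk2, which is therefore not analysed here. The score of each of the 7 genes is thus that of a single probe set.

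The treated and untreated ENCCs were cells of Wnt1-Cre;R26-YFP embryos on a C57BL/6 background, in which YFP marks descendants of cells that expressed Wnt1-Cre. They were sorted by YFP and cultured on fibronectin in medium with N2, B27, FGF and EGF, so both groups of ENCCs received these growth factors, for a time the labels do not give. Cells of a gut were divided over a well with 50 ng/ml GDNF and a well without it. Whole guts came from wild-type C57BL/6 embryos without added GDNF and were dissected from duodenum to anus. Their labels carry the sorting and culture text of the ENCCs and an ENCC cell type, but their source is given as gut, and all 10 gut epithelium genes tested were lower in ENCCs than in them. The titles give 9 gut numbers for ENCCs, hence 9 treated and 9 untreated RNAs, and 8 whole guts. The RNAs were read on 13 arrays for treated ENCCs, 12 for untreated ENCCs and 8 for whole gut, in 2 batches, with 7 ENCC RNAs read in both batches and all whole guts in batch 2. Litters are not named and pooling of embryos is not mentioned in the labels, so the p-values measure the spread between these samples.

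Granins are acidic proteins of the regulated secretory pathway. They aggregate with calcium in the trans-Golgi network, help to form dense-core granules and are stored there with peptide hormones and neuropeptides. Prohormone convertases cut their precursors at pairs of basic residues inside the maturing granule. In the gut these proteins are known from enteroendocrine cells of the epithelium and from neurons, and chromogranin A is a common marker of endocrine cells.

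Each deposited value is a score that ranks a probe set within its array, with a median of 0 and a range of -4.084 to 4.084. Before the ranking, each probe set was apparently centred and scaled within its batch, as read from the values of the 7 ENCC RNAs read in both batches. Whether other arrays also set the scale was not tested. A score therefore keeps no expression level, differences are in score units and not folds, and no level is compared between genes. If the 4 treated and 3 untreated RNAs read in both batches lay at only 2 levels, scaling them to unit SD would put the levels 1.87 apart, so large GDNF differences are held down. The array of the untreated well of gut 3 in batch 2 stood apart. Over all probe sets it correlated at r = 0.117 with the same RNA in batch 1, where the other 6 RNAs read in both batches reached 0.247 to 0.325. Results that it moved most are given with and without it. Leaving it out of a fit does not undo its part in the apparent centring and scaling of batch 2.

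All 7 measured genes rose with GDNF. In score units, Vgf, Chgb and Pcsk1 had the largest differences, Scg3, Scg5 and Chga followed and Scg2 had the smallest. With each probe set apparently scaled on its own, this order does not rank the genes by fold change. Of the 7 genes, 6 were higher in the treated well in 9 of 9 guts. The calls were made with limma on within-gut differences, with Benjamini-Hochberg adjustment over 18193 genes and a threshold of 0.05. The same test called 31.5% of all genes, with 18.3% of all genes higher and 13.2% lower, so a single call is common in these data. The median difference of the 7 genes was 1.42, against 0.01 over all genes. In an RNA of sorted cells, a change in the share of cells that express a gene and a change in RNA per cell cannot be told apart.

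The promoters of Chgb, Scg2 and Pcsk1 share the letters TGACGTCA of the cyclic AMP response element, and are shown for that reason, with the partial match of Chga. The promoters of Chga, Scg3 and Scg5 lack these letters, and these genes were also called higher with GDNF. The call thus does not separate genes with the letters from genes without them. The RefSeq promoter table of GRCm38.p6, with 250 bases before and 50 bases after each start, held 7 of the 8 listed genes, all but Vgf. Among them is Pcsk2, which has no scores here. Both strands were searched for TGACGTCA and for its shorter form TGACG, which lies inside it and is thus counted with it. TGACGTCA was found in 3 of the 7 promoters, against 1.79% of 32851 promoters in the table, and TGACG in 7 of 7, against 20.8%. The windows run 5′ to 3′ on the gene's strand, with the match in capitals, and end before the start site. They cover chr2:132781530-132781617 (plus strand) for Chgb, chr1:79440047-79440134 (minus strand) for Scg2, chr13:75089739-75089826 (plus strand) for Pcsk1 and chr12:102554857-102554940 (plus strand) for Chga.
Chgb: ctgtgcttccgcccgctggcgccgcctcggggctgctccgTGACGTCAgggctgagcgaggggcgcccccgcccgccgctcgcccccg
Scg2: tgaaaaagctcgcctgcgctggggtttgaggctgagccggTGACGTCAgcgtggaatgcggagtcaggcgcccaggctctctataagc
Pcsk1: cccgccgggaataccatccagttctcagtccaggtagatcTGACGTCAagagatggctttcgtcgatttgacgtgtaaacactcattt
Chga: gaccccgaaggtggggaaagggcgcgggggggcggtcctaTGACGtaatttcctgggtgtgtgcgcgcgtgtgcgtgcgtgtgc
The first base of TGACGTCA lay at -72, -68 and -78 from the start of Chgb, Scg2 and Pcsk1, and that of TGACG at -44 from the start of Chga. The shorter form lay at -30 in Scg3, at -34 on the other strand in Pcsk2, at -175, 19 and, on the other strand, 40 in Scg5, and a further time in Pcsk1 at -50. A match of letters is a description of the promoter and shows no binding.

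Among the granins proper, Chgb separated the treatment groups completely. Chgb encodes chromogranin B (probe set 1415885_at). Its scores in the 9 treated RNAs ran from 0.43 to 1.18 with a median of 0.70, against -2.14 to -0.32 with a median of -0.81 in the 9 untreated RNAs. Every treated score lay above 0 and every untreated score below it, and gut 1 had the lowest untreated score. The within-gut difference was 1.71 ± 0.41 (SD, n = 9 guts), from 1.28 in gut 6 to 2.57 in gut 1 (limma adjusted p = 7.67e-05). In the 3 guts read in both batches, the differences in batches 1 and 2 were 1.83 and 1.43 in gut 3, 1.57 and 1.89 in gut 8 and 1.79 and 1.82 in gut 9.

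Chga, which encodes chromogranin A (1418149_at), was higher in the treated well in 8 of 9 guts, and its groups overlapped. The treated scores ran from 0.21 to 1.54 with a median of 0.59, against -1.97 to 1.84 with a median of -0.98 in untreated RNAs. Untreated scores were spread far wider than treated ones, with SDs of 0.40 in treated and 1.22 in untreated RNAs. Gut 4 was the exception, with 1.54 in the treated and 1.84 in the untreated well, the highest score of each group. Gut 5 had 0.68 in the treated and 0.61 in the untreated well. These wells gave within-gut differences of -0.30 and 0.07, while the other guts lay between 0.57 and 2.46. The mean difference was 1.24 ± 0.91 (SD, n = 9; limma adjusted p = 0.00500).

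Vgf, a granin-like precursor of several secreted peptides that is induced by neurotrophins (1436094_at), had the most uniform difference in score. The treated scores ran from 0.40 to 1.16 with a median of 0.81, against -1.23 to -0.70 with a median of -0.89 in untreated RNAs. The groups did not overlap. The differences of the 9 guts lay between 1.53 and 2.04, with a mean of 1.76 ± 0.17 (SD, n = 9; limma adjusted p = 6.45e-05). Of the variance of Vgf among the 18 ENCC RNAs, 94.8% lay between treated and untreated RNAs, a share reached by 0.121% of all genes. That share was 83.3% for Chgb, 81.6% for Pcsk1, 65.2% for Scg5, 45.3% for Scg3, 37.3% for Scg2 and 34.1% for Chga, with a median of 11.5% over all genes.

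Scg2 encodes secretogranin II, the precursor of the peptide secretoneurin (1450708_at). Its treated scores ran from -0.95 to 1.35 with a median of 0.12, against -1.54 to -0.14 with a median of -0.45 in untreated RNAs. The groups overlapped, but the treated well was higher in each of the 9 guts. The differences ran from 0.15 in gut 5 to 1.80 in gut 6, with a mean of 1.11 ± 0.57 (SD, n = 9; limma adjusted p = 0.00210). Scg3 encodes secretogranin III, which binds chromogranin A and cholesterol-rich granule membrane (1448628_at). Its treated scores ran from -0.57 to 1.61 with a median of 0.61, against -2.71 to 0.25 with a median of -0.40 in untreated RNAs. Scg3 also overlapped between groups and was higher in 9 of 9 treated wells, by 1.42 ± 0.75 (limma adjusted p = 9.63e-04).

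The convertase Pcsk1 and the chaperone Scg5 separated the groups as well. Pcsk1 encodes a prohormone convertase of dense-core granules (1421396_at). Its treated scores ran from -0.17 to 1.21 with a median of 0.72, against -1.42 to -0.43 with a median of -1.07 in untreated RNAs. No untreated score reached the lowest treated one. The differences lay between 1.26 in gut 4 and 2.35 in gut 9, with a mean of 1.65 ± 0.36 (SD, n = 9; limma adjusted p = 7.67e-05). Scg5 encodes the small granule protein that binds and chaperones the Pcsk2 convertase (1423150_at). Its treated scores ran from 0.28 to 1.28 with a median of 0.45, against -2.29 to -0.01 with a median of -0.63 in untreated RNAs. With arrays of 1 RNA averaged, all treated scores were above 0 and all untreated ones below it. Single arrays of Scg5 did overlap. The untreated arrays of guts 8 and 9 in batch 2 scored 0.16 and 0.32, against 0.09 in the treated array of gut 9 in batch 1. Scg5 rose by 1.37 ± 0.78, from 0.48 in gut 2 to 2.57 in gut 1 (SD, n = 9; limma adjusted p = 0.00137). With arrays averaged in this way, treated and untreated RNAs did not overlap in 4 of the 7 genes, Chgb, Scg5, Vgf and Pcsk1. Of all genes, 4.69% had treated RNAs wholly above untreated ones. The treated well was higher in all 9 guts in 6 of the 7, against 11.7% of all genes.

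**Figure D1:**
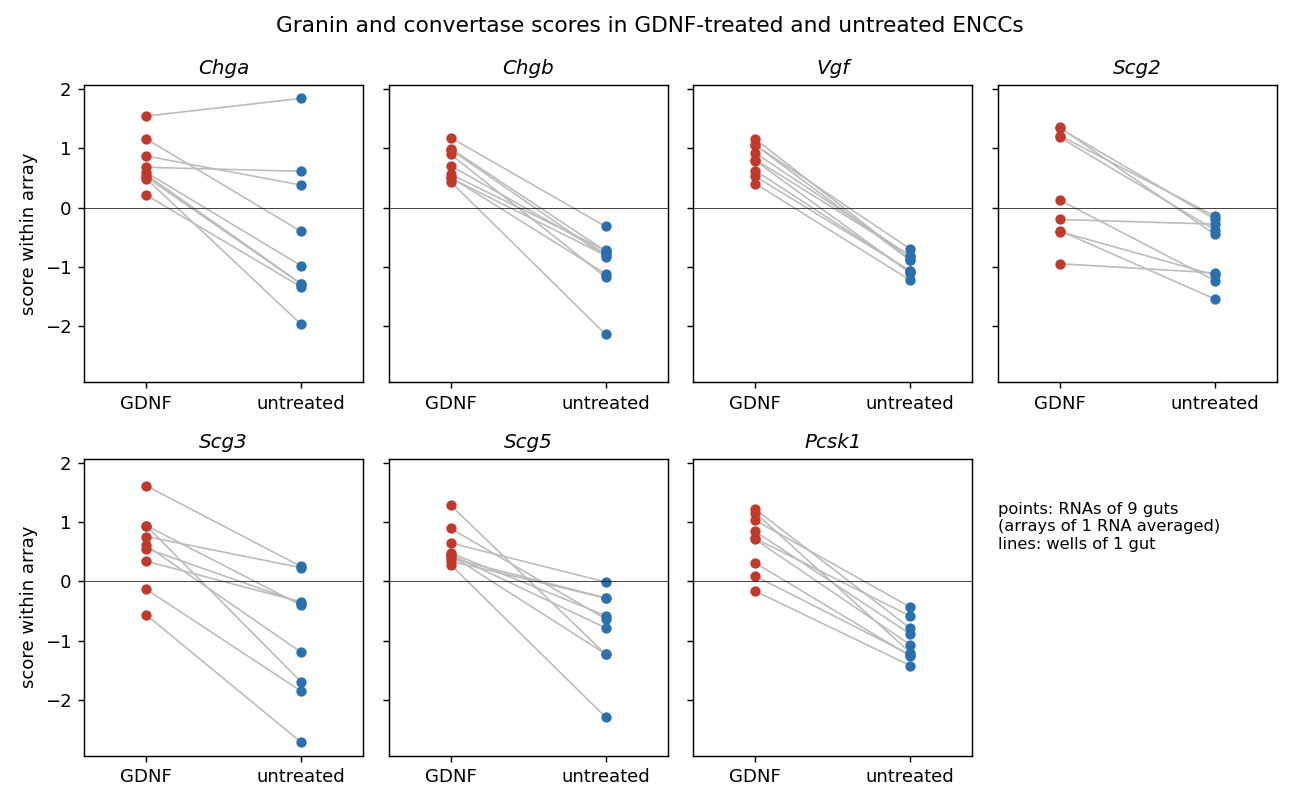
Scores of the 7 genes (y axis, score within an array) in GDNF-treated (red, left) and untreated ENCC RNAs (blue, right), with a line joining the wells of 1 gut and arrays of 1 RNA averaged. Vgf lines run nearly parallel, while the Chga lines of guts 4 and 5 are flat or turned.

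The 2 batches did not carry the same weight for all members. In batch 1 alone, with 8 guts, limma called all 7 genes, with mean differences of 1.28 to 1.73. Of all genes, limma called 5324 in batch 1 alone. In batch 2 alone, with 4 guts, limma called 0 of the 7 genes (adjusted p = 0.111 to 0.418) and 0 of all genes. There 3516 genes had an unadjusted p below 0.05, among them 4 of the 7, all but Scg2, Scg3 and Scg5. The mean differences in batch 2 were 1.97 for Vgf, 2.03 for Pcsk1, 1.81 for Chgb, 1.43 for Chga and 1.00 for Scg2. For Scg3 and Scg5, batch 2 rested on gut 3, whose untreated array stood apart. The Scg3 differences in batch 2 were 0.19, 3.22, 0.15 and 0.12 in guts 2, 3, 8 and 9, although batch 1 gave 2.05, 1.68 and 1.26 in guts 3, 8 and 9. The Scg5 differences in batch 2 were 0.48, 2.62, 0.34 and 0.27 in the same guts, against 2.40, 1.77 and 0.98 in batch 1. Gut 3 also had the highest batch 2 difference of Chga, at 2.29 against 0.57 to 1.52 in the other 3 guts, and of Scg2, at 1.78 against 0.35 to 0.96. Without that array, so that gut 3 came from batch 1, limma still called all 7 genes over the 9 guts. The differences were then 1.36 for Scg3, 1.36 for Scg5, 1.16 for Chga and 1.06 for Scg2. Of all genes, limma called 5883 without that array. The same RNA read in both batches differed in score by a median of 0.14 for Pcsk1, 0.29 for Chgb, 0.34 for Vgf, 0.51 for Scg2, 0.60 for Chga, 0.74 for Scg3 and 0.92 for Scg5.

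**Figure D2:**
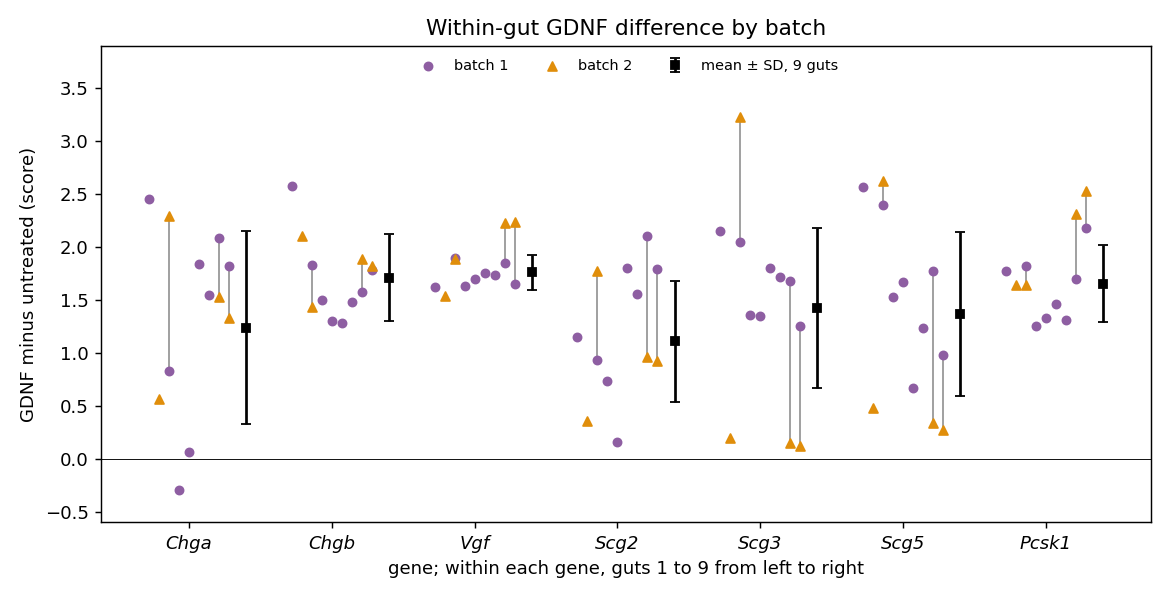
GDNF minus untreated (y axis, score units) for the 7 genes, with guts 1 to 9 from left to right within each gene, circles for batch 1, triangles for batch 2, grey lines joining batches of 1 gut and squares for the mean ± SD over 9 guts. The triangles of Scg3 and Scg5 in guts 2, 8 and 9 lie between 0.12 and 0.48, below the circles of guts 8 and 9.

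Other genes of the secretory granule and of peptide processing were taken from fixed lists. Beside the counts of each list stand the 18.3% of all genes called higher and 13.2% called lower. Of 17 granule partner genes, 10 rose and 2 fell, with a median difference of 1.08. Ptprn2, a granule membrane protein of the receptor phosphatase family, rose by 2.03 ± 0.74, and Sez6l2, a neuronal membrane protein, rose by 1.99 ± 0.56 (SD, n = 9 guts, limma adjusted p = 9.30e-05 and 6.52e-05). Nucb2, the precursor of nesfatin, fell by 1.50 ± 0.99, and Pam, the enzyme that amidates peptide ends, fell by 1.35 ± 1.39 (limma adjusted p = 0.00200 and 0.0172). Cpe, the carboxypeptidase that trims the basic residues left by convertases, lay at -0.59 ± 1.06 and Cadps, a factor of granule release, at -0.64 ± 1.07, and neither passed (limma adjusted p = 0.188 and 0.148). Pcsk1n, singled out after its values were seen because it encodes proSAAS, an inhibitor of the Pcsk1 convertase, rose by 1.87 ± 0.27 and was higher in 9 of 9 guts (limma adjusted p = 6.45e-05).

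Of the 6 other proprotein convertases measured, limma called 0 higher and 3 lower, with a median of -0.70, and at an unadjusted p below 0.05 the counts were also 0 and 3. Furin, the convertase of the constitutive pathway, fell by 1.70 ± 1.05 and Pcsk6 fell by 1.37 ± 1.27, each in 8 of 9 guts. Mbtps1, the convertase that activates SREBP, named as the remaining one of the 3 after its values were seen, fell by 0.86 ± 0.57 in 9 of 9 guts (SD, n = 9; limma adjusted p = 0.00117, 0.0108 and 0.0102 for the 3 genes). Pcsk4 lay at 0.29 ± 1.66 and Pcsk5 at -0.54 ± 0.71, and neither passed.

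Precursors of neuropeptides were called in both directions. Of 14 neuropeptide genes, 6 rose and 2 fell, with a median difference of 0.64, against 18.3% of all genes called higher and 13.2% lower. The 2 that fell are thus near the share of all genes. Pdyn, the prodynorphin gene, rose by 1.80 ± 0.47 and Vip rose by 1.77 ± 0.34, each in 9 of 9 guts. Npy fell by 1.46 ± 1.29 and Cck fell by 0.97 ± 0.78, each in 8 of 9 guts (SD, n = 9; limma adjusted p = 0.00794 and 0.0116). Tac1 lay at 0.57 ± 0.93 and Penk at -0.52 ± 0.57, and neither passed.

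Marker lists of other cell types moved as follows in the same wells, where 18.3% of all genes were called higher and 13.2% lower. Enteric neuron genes rose in 8 of 11 and fell in 0, at an unadjusted p also in 0, with a median of 1.60. Their mean was higher in the treated well in 9 of 9 guts, by 0.88 to 1.64, as was the mean of the 7 granin and convertase genes, by 0.98 to 2.04. Elavl3 rose by 2.04 ± 0.41 and Ina by 1.88 ± 0.34, while Elavl4 lay at -0.15 ± 1.53 and Gap43 at 0.72 ± 1.14. Of 5 genes of enteric glia and progenitors, 1 rose (Fabp7, by 1.60 ± 0.39) and 0 fell, also at an unadjusted p, and Sox10 lay at -0.03. Of 10 gut epithelium genes, 1 rose (Krt19, by 1.58 ± 0.51), with a median of 0.02, and of 9 genes of smooth muscle and mesenchyme, 2 fell (Osr1 by 1.76 and Pdgfrb by 1.35), with a median of -0.51. Of 12 enteroendocrine genes limma called 0, also at an unadjusted p below 0.05, with a median of 0.02 and with Neurog3 at -0.02 ± 1.07 and Neurod1 at -0.48 ± 1.15. Of 9 ribosomal protein genes, 8 fell (9 at an unadjusted p below 0.05), with a list mean of -1.13 ± 0.43 that was below 0 in 9 of 9 guts. These genes were listed as a possible sign of RNA quality, but whether they follow it in these samples was not tested. As a measure of the arrays, the mean of 11 hybridisation controls was -0.70 ± 1.06 as treated minus untreated (SD, n = 9 guts), below 0 in 6 of 9. With these controls as an uncentred covariate, a setting chosen after seeing the data, the 7 genes kept differences of 1.16 to 1.77. Limma called all 7 of them and 4778 of all genes, against 5725 of all genes without the covariate. The part of neuron number and RNA quality in the granin differences was not tested.

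**Figure D3:**
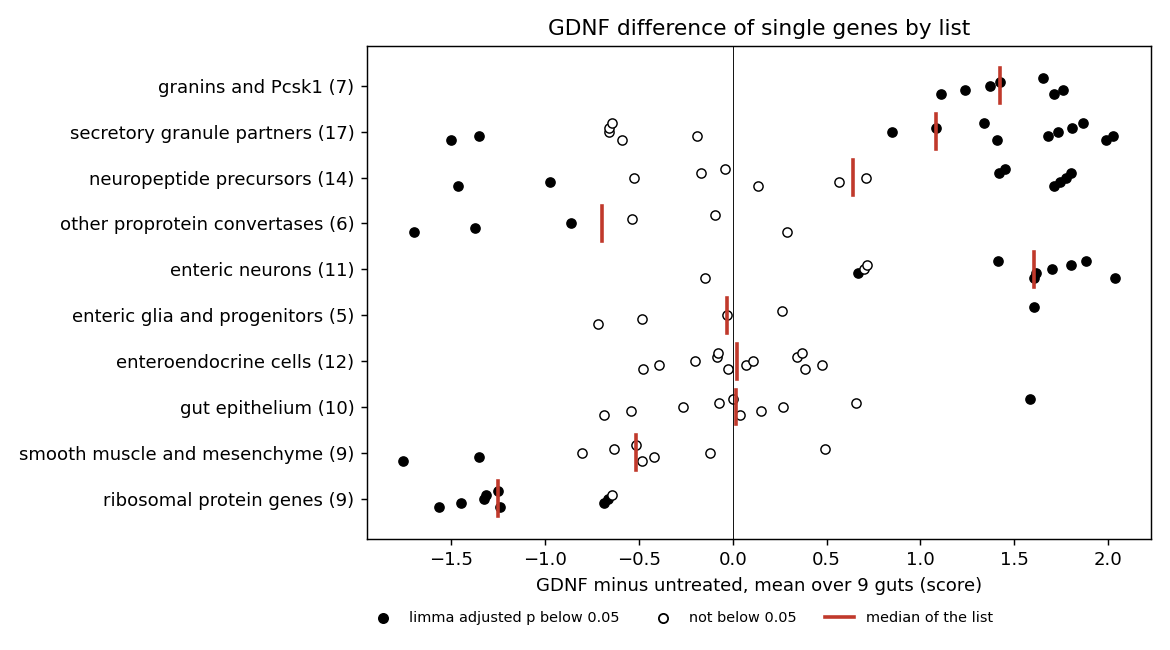
GDNF minus untreated (x axis, score units, mean over 9 guts) for each gene of each list (y axis, number measured in brackets), filled where the limma adjusted p was below 0.05, with a red bar at the median of the list. All 7 granin and convertase genes lie between 1.11 and 1.76, the other convertases between -1.70 and 0.29, and the 12 enteroendocrine genes between -0.48 and 0.48.

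By likeness of scores over the 18 ENCC RNAs, with arrays of 1 RNA averaged, the genes nearest to each member outside the list were named. These RNAs share wells of a gut, arrays and the GDNF difference, so the correlations are a description. For Vgf they were Gng3 (r = 0.983), a G protein gamma subunit of neurons, Resp18 (0.979), a protein of endocrine and neuronal granules, and Cend1 (0.979), a neuronal protein of cell cycle exit. For Pcsk1 they were Mpc1 (0.976) and Dlat (0.970), both of mitochondrial pyruvate use, and the neuronal elongation factor gene Eef1a2 (0.969). For Chgb they were Fgf13 (0.971), Slc25a4 (0.967) and the glycine receptor subunit gene Glrb (0.964). For Scg2 they were the adhesion genes Ncam2 (0.947) and Alcam (0.945) and Fkbp2 (0.937). For Scg5 they were Snap47 (0.941), Rundc3b (0.938) and Vdac2 (0.929). For Scg3 they were Hdgfl3 (0.934), Eid2 (0.922) and Cbr1 (0.914). For Chga they were 4932441J04Rik (0.909), Elovl7 (0.907) and Ret (0.905), the GDNF receptor gene, whose own difference of 0.70 ± 1.07 did not pass (limma adjusted p = 0.119).

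Whole gut was set against ENCCs of batch 2 alone, with 4 treated RNAs, 4 untreated RNAs and 8 whole guts. Both comparisons use the same 8 whole gut arrays. All 10 gut epithelium genes were lower in treated and in untreated ENCCs, and 11 of 11 neuron genes were higher in each. Enteroendocrine genes were lower in 8 of 12 in treated and in 7 of 12 in untreated ENCCs, with 0 higher in either, also at an unadjusted p below 0.05. Their mean score was -0.33 to 0.31 in treated ENCCs, -0.77 to 0.67 in untreated ENCCs and 1.07 to 1.43 in whole gut.

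In treated ENCCs all 7 genes were higher than in whole gut, and the groups did not overlap in any of them. Limma called 51% of all genes in this comparison, 25.1% higher and 26% lower, and 17.8% of all genes lay wholly above whole gut. Chga scored 0.95, 1.20, 0.72 and 0.89 in treated ENCCs of guts 2, 3, 8 and 9, against -1.77 to -1.55 with a median of -1.61 in whole gut. All treated scores lay more than 2 units above every whole gut, and the difference was 2.56 with a 95% interval of 2.30 to 2.82 (limma adjusted p = 5.34e-09). Vgf scored 0.47, 0.99, 1.33 and 1.26 in treated ENCCs, against -1.35 to -1.25 with a median of -1.33 in whole gut, a difference of 2.33 (2.00 to 2.66). Pcsk1 scored 0.38, 0.81, 1.44 and 1.39 in treated ENCCs, against -1.14 to -0.85 with a median of -0.99 in whole gut, a difference of 2.00 (1.60 to 2.40). Gut 2 had the lowest treated score of both Vgf and Pcsk1.

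The other 4 genes were higher by 1.09 to 1.83. Scg2 scored 0.07, 0.29, 1.08 and 1.09 in treated ENCCs, against -1.34 to -1.13 with a median of -1.18 in whole gut. Chgb scored 0.93, 0.37, 1.19 and 1.24 in treated ENCCs, against -1.45 to -0.45 with a median of -0.87 in whole gut. In scores, whole guts were spread widest for Chgb, with an SD of 0.32 and whole gut 4 lowest, where the other 6 genes had SDs of 0.02 to 0.10. Since each probe set was apparently scaled on its own ENCC values, these SDs do not show which gene varied most in expression. Scg5 scored 0.47 to 0.82 in treated ENCCs, against -1.09 to -1.03 in whole gut, and Scg3 scored 0.42 to 0.57 in treated ENCCs, against -0.62 to -0.53 in whole gut. Both treated groups were clear of whole gut. Their narrow spread was seen in batch 2 only. In batch 1 the treated RNAs of guts 2, 3, 8 and 9 ran from 0.15 to 1.31 for Scg3 and from 0.09 to 1.74 for Scg5. The limma adjusted p of these 4 genes was 1.32e-05 or lower. With a variance for each group, the call of Chgb ended (limma adjusted p = 0.0503).

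Untreated ENCCs were less clearly set apart from whole gut. Limma called 3 of the 7 genes higher, Chga, Scg2 and Vgf, and 0 lower (4 and 0 at an unadjusted p below 0.05), against 42.6% of all genes called, 19.8% higher and 22.8% lower. Chga scored 0.38, -1.09, -0.80 and -0.44 in untreated ENCCs of guts 2, 3, 8 and 9, against a median of -1.61 in whole gut. All 4 lay above every whole gut, and the difference was 1.13 (95% interval 0.65 to 1.62, limma adjusted p = 9.90e-04, exact permutation p = 0.00202, the smallest that 4 against 8 allows). Without gut 3 it was 1.33 (limma adjusted p = 1.27e-04). Vgf scored -1.07, -0.90, -0.90 and -0.97 in untreated ENCCs, against -1.35 to -1.25 in whole gut. These too were above every whole gut, by a difference of 0.36 (0.07 to 0.65, limma adjusted p = 0.0470). The call of Vgf ended without any 1 of the 8 whole guts (limma adjusted p up to 0.0840), with a variance for each group, in ranks, with probe sets fitted singly and with the most reproducible probe set per gene (limma adjusted p = 0.108 to 0.299). Vgf has 1 probe set, so these probe set rules left its difference at 0.36. They changed only its estimated spread and the adjustment over all genes. Chga and Vgf were the 2 of 7 genes whose groups did not overlap, where 12.4% of all genes lay wholly above whole gut.

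For Chgb and Pcsk1 the mean of untreated ENCCs lay within 0.04 of that of whole gut. Chgb scored -1.17, -1.07, -0.69 and -0.58 in untreated ENCCs, against -1.45 to -0.45 in whole gut, a difference of -0.04 (95% interval -0.48 to 0.41, limma adjusted p = 0.908). Pcsk1 scored -1.26, -0.83, -0.87 and -1.14 in untreated ENCCs, against -1.14 to -0.85 in whole gut, a difference of -0.03 (-0.36 to 0.30, limma adjusted p = 0.892). The 4 untreated Chgb scores lay within the range of whole gut, while for Pcsk1 guts 2 and 9 lay below that range, gut 3 above it and gut 8 inside it. The intervals allow untreated ENCCs to lie up to 0.48 lower or 0.41 higher. With GDNF the same genes lay above whole gut, by 1.78 for Chgb and 2.00 for Pcsk1.

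Scg2, Scg3 and Scg5 depended on gut 3 in this comparison. Scg2 scored -0.28, -1.48, 0.12 and 0.17 in untreated ENCCs, against a median of -1.18 in whole gut, a difference of 0.83 (limma adjusted p = 0.0168). The array of gut 3 alone lay below the whole guts. Scg3 scored 0.23, -2.66, 0.38 and 0.41 in untreated ENCCs, against a median of -0.59 in whole gut, and Scg5 scored -0.01, -1.81, 0.16 and 0.32, against a median of -1.06 in whole gut. The other 3 arrays were above every whole gut in both genes. With all 4 arrays the differences of Scg3 and Scg5 were 0.17 and 0.73 and did not pass (limma adjusted p = 0.779 and 0.0714). Without gut 3 they were 0.92 and 1.22 and passed (limma adjusted p = 4.93e-06 and 9.56e-07), so that limma called 5 of the 7 genes. The scores of the other arrays were apparently centred and scaled with the array of gut 3 included. Leaving that array out of the fit does not undo this, so these values still depend on it. Scg2 was 1.20 higher without gut 3, but its call ended without gut 8 or gut 9 (limma adjusted p = 0.0556 and 0.0567) and with a variance for each group (0.0703).

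**Figure D4:**
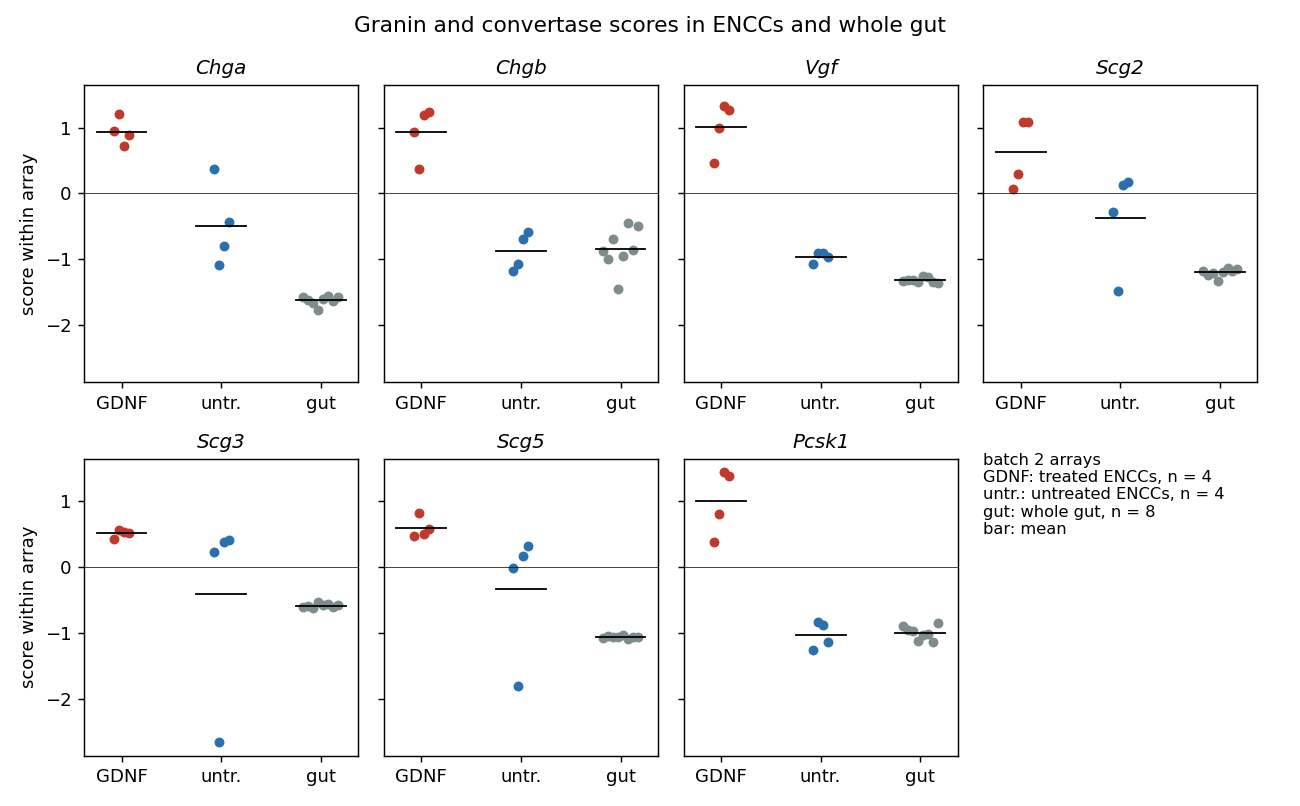
Scores of the 7 genes in batch 2 (y axis, score within an array) in GDNF-treated ENCCs (red, n = 4), untreated ENCCs (blue, n = 4) and whole gut (grey, n = 8), with a bar at each mean. Treated ENCCs lie above all whole guts in every panel, while untreated Chgb lies among the whole guts, untreated Pcsk1 lies on both sides of them and 1 untreated array, of gut 3, lies lowest for Scg2, Scg3 and Scg5.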

How the data were processed

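Biotinylated cRNA of each sample was hybridised to an Affymetrix mouse array, 33 in all, per the labels' protocols. The submitters' processing notes name RMA without a version. The deposited values are scores: the 45101 sorted values of each array equal normal quantiles of rank over n plus 1, within 5e-06. That each probe set was centred and scaled within a batch before is read from the values. Means of probe sets over the 7 RNAs that both batches share scatter by an SD of only 0.0585 (batch 1) and 0.117 (batch 2), against 0.378 for independent values. Scores do not show which probe sets were dim, so none were removed, and precision is limited by how many arrays there are.

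Probe sets with 1 symbol were averaged per gene, without the 64 control probe sets. Limma 3.58.1 in R 4.3.3 (lmFit, eBayes) was fitted to all genes and tested on simulated data. GDNF was tested on within-gut, within-batch differences, averaged over batches, and ENCCs of batch 2 against whole gut as 2 groups. Intervals are limma's at 95%. The pairing comes from the treatment protocol. Same-numbered RNAs correlated at 0.06 to 0.30 in their deviations from group means, and were the best match in only 5 of 9 guts.

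The members, lists and tests were chosen with earlier results of these data known. A gene named from a list had to be among the 2 called genes with the largest difference in either direction or the first 2 uncalled genes in list order, except Pcsk1n and Mbtps1, and not every gene that qualified is named. For each member the 3 genes most like it were named. The alternatives were leaving out each replicate, batch or doubted array, other probe set rules, ranks, variances, covariates, no pairing and exact tests.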

Additional observations from a re-analysis of the deposited data

Results flagged for a closer look

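Samples far from the rest of their group were sought in 42 groups of 4 to 9 values, of which chance marks about 5%, and 3 were found. The untreated RNA of gut 1 scored -2.14 for Chgb, where the other 8 untreated RNAs lay between -1.17 and -0.32. In batch 2 the untreated RNA of gut 3 scored -2.66 for Scg3, where the other 3 lay between 0.23 and 0.41, and -1.81 for Scg5, where they lay between -0.01 and 0.32. In batch 1 the same RNA scored -0.74 for Scg3 and -0.66 for Scg5.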

How the results depend on the processing

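The count of 7 genes higher and 0 lower with GDNF held under every alternative run except batch 2 alone, a fit of 4 guts that called 0 genes higher, and it was 7 with any 1 gut left out. With 1 gut left out, limma called 5029 to 5909 of all genes. Each member has 1 probe set, so the other probe set rules could not change its difference. Neither could the robust fit, the exact test or the hybridisation controls as a centred covariate. Under these settings only the p-values could move. Without the replicate block, that is unpaired, limma also called 7 higher and 0 lower (Chga 1.23, adjusted p = 0.0226). The pairing thus changed no call of these genes. Of all genes, limma called 4859 when unpaired. Treated ENCCs against whole gut kept 7 higher with any 1 array left out and 6 with a variance for each group. With 1 array left out of that comparison, limma called 8634 to 9835 of all genes. For untreated ENCCs against whole gut the main count of 3 higher was 1 with a variance for each group and 2 to 5 with 1 array left out, reaching 5 without gut 3. Over all genes, limma called 9497 without gut 3, against 7752 with it. Differences near 0 in that comparison changed sign, with no call, when 1 array was left out. Chgb, at -0.04, ran from -0.13 to 0.063, with 0.063 and 0.027 without untreated gut 2 or 3 and 0.021 and 0.016 without whole gut 6 or 8. Pcsk1, at -0.03, ran from -0.095 to 0.048, with 0.048 and 0.0077 without untreated gut 2 or 9. Scg3, at 0.17, ran from -0.098 to 0.92, with -0.039, -0.090 and -0.098 without untreated gut 2, 8 or 9. Scg5 passed against whole gut in ranks (limma adjusted p = 0.0140). Over all genes, batch 2 alone called 0 with GDNF against 5725, and a variance for each group called 5805 against 9281 for treated ENCCs and 3761 against 7752 for untreated ENCCs. Fitted singly, 10521, 16506 and 13214 probe sets were called in the 3 comparisons. Apart from fewer guts or arrays and more probe sets tested, the cause of these changes was not tested. Of the values of single genes under alternatives, 342 kept their direction and side of the threshold, 23 lost a call, 4 gained one and 9 changed sign. These counts include the settings that could not change a difference.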
